A study of Mus musculus with 6 samples.

Results

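The 10 genes described here encode subunits of the HOPS and CORVET tethers of endosomes and lysosomes and of the Mon1-Ccz1-Rmc1 complex that works beside them: Vps11, Vps16, Vps18, Vps33a, Vps39, Vps41, Vps8, Tgfbrap1, Rmc1 and Mon1a. They were matched exactly by symbol, and all 10 were found among the 55353 genes of each library. Of the 142647 isoforms listed per library, 75 belong to them. RNA was sequenced from the whole testis of 14-day-old mice (postnatal day 14), 3 of them controls and 3 mutants, with 1 library per animal. The mutants are labelled Rnu11 cKO, a conditional knockout of the gene for U11 small nuclear RNA, which recognises the 5′ splice site of minor introns. The sources used here do not give the Cre line, the cells in which the deletion occurs, or more on the genotype of the controls. All libraries were made from total RNA after removal of ribosomal RNA, and the values are TPM, a level scaled to transcript length and to the library total, so that genes can be compared with each other.

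HOPS and CORVET are large tethers that hold membranes of the endolysosomal system together before they fuse. Both share a core of Vps11, Vps16, Vps18 and the SNARE-binding Vps33a. HOPS adds Vps39 and Vps41 and acts with Rab7 on late endosomes and lysosomes, whereas CORVET adds Vps8 and Tgfbrap1 and acts with Rab5 on early endosomes. Mon1 and Ccz1, with Rmc1 as a further subunit in animals, form the exchange factor that loads Rab7 with GTP. Minor introns are a small class of introns with their own splice site sequences that are removed by the minor spliceosome, of which U11 is a part. Vps16 and Rmc1 each hold one.

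Rnu11 was listed at 614, 576 and 550 TPM in controls 1, 2 and 3 and at 196, 393 and 203 TPM in mutants 1, 2 and 3, so each mutant lay below each control (log2 difference -1.21, limma adjusted p = 0.29). Of 17959 genes tested, those that averaged 1 TPM or more, 5 passed an adjusted p of 0.05 in limma, a background of 0.0278%, and the 3640 genes whose groups did not overlap were 20.3%. Marker levels of several cell types also differed. Summed TPM of 10 Sertoli cell markers ranged from 1737 to 1926 in controls and from 2381 to 3059 in mutants, with 10 of 10 higher in mean. Sums of 8 Leydig cell markers ranged from 126 to 235 and from 246 to 392, with 8 of 8 higher. Sums of 10 spermatocyte markers ranged from 452 to 549 and from 314 to 396, with 0 of 10 higher. Sums of 10 spermatogonial markers ranged from 216 to 229 and from 198 to 203, with 2 of 10 higher. This list was mixed, with 5 genes lower and 1 higher without overlap. Macrophage sums overlapped at 52.6 to 82.7 and 70.2 to 107, with Cd163 under 1 TPM, and peritubular, endothelial, and pachytene and spermatid sums overlapped as well. Acrv1, Tnp1 and Prm1 of the last list were under 1 TPM. Control 2 stood apart from the other controls, with the highest Leydig sum (235 against 126 and 137) and the lowest pachytene and spermatid sum (12.7 against 45.9 and 40.8). In whole testis, fewer cells of a type and less RNA per cell cannot be told apart, and the part of these markers in the results was not tested.

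At the level of whole genes, none of the 10 passed the test, and 0 of 10 had an unadjusted p under 0.05, against a background of 16.1% of all genes tested (12.1% higher, 3.98% lower). As deposited, 8 were higher in mean in mutants and Vps16 and Rmc1 were lower, and the median log2 difference was 0.08 against 0.09 for all genes tested. This split depends on the scale: 4 of 10 were higher after median-ratio scaling between libraries and after rescaling to protein-coding genes, because Vps11, Vps33a, Vps8 and Mon1a turned to lower. The other 6 kept their direction, but under these scalings the log2 differences given per gene in the next paragraphs became 0.13 and 0.10 for Vps18, 0.13 and 0.10 for Vps39, 0.048 and 0.018 for Vps41, 0.090 and 0.063 for Tgfbrap1, -0.34 and -0.39 for Vps16, and -0.25 and -0.30 for Rmc1. Those scalings moved the median of all genes to 0.00 and to -0.03. Adjusted p-values of the 10 in limma ranged from 0.36 to 0.83.

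**Figure D1:**
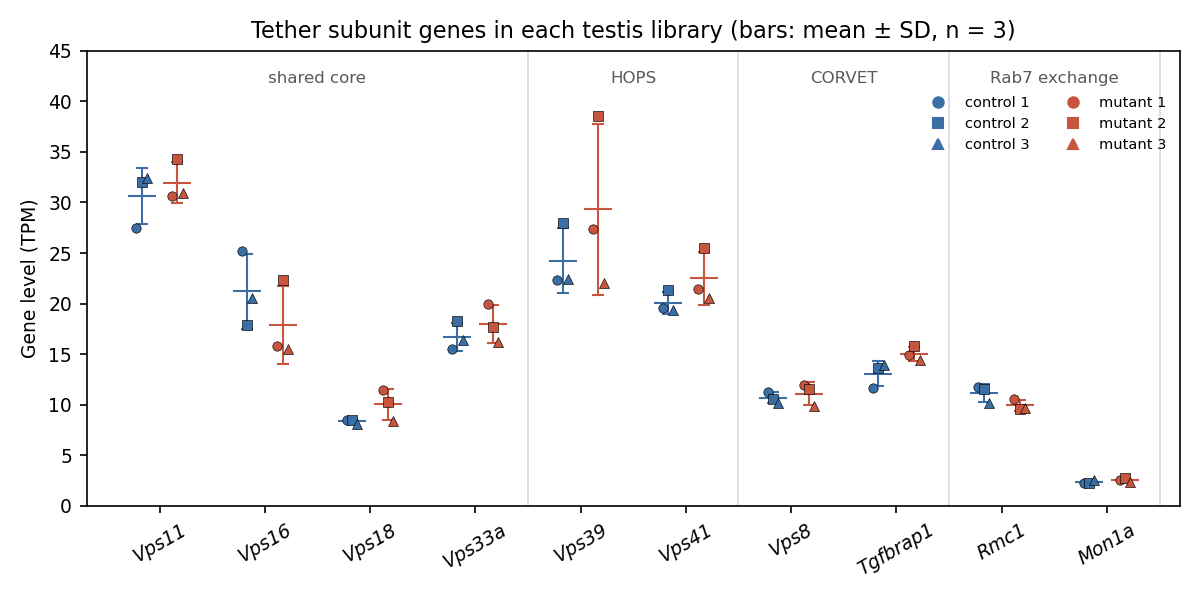
Gene level in TPM of each of the 10 genes, in controls (blue) and mutants (red), with 1 point per library and mean ± SD (n = 3) as bars. As deposited, the groups overlap for every gene except Tgfbrap1, where the mutants lie between 14.4 and 15.8 TPM and the controls between 11.6 and 13.9.

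Vps11, a core subunit (chromosome 9, 44347749 to 44361670, minus strand, GRCm38), had the highest level of the 10 in both groups. It was at 27.5, 32.0 and 32.4 TPM in controls and 30.6, 34.3 and 30.9 TPM in mutants. The groups overlapped, with a log2 difference of 0.06 (limma adjusted p = 0.77). It was -0.014 without control 1, 0.093 without control 2, 0.10 without control 3 and 0.0097 without mutant 2.

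Vps16, the core subunit that binds Vps33a (chromosome 2, 130424339 to 130444269, plus strand), was at 25.2, 17.9 and 20.6 TPM in controls and 15.8, 22.4 and 15.5 TPM in mutants. Mutants 1 and 3 lay below every control, and mutant 2 lay above controls 2 and 3. The log2 difference was -0.24 (SE 0.18, limma adjusted p = 0.49), and it was -0.12 without control 1, -0.17 without mutant 1, -0.15 without mutant 3 and -0.40 without mutant 2.

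Vps18, which with Vps11 carries a RING finger at its end, was the lowest core subunit (chromosome 2, 119288740 to 119298453). It was at 8.50, 8.54 and 8.10 TPM in controls and 11.5, 10.3 and 8.35 TPM in mutants. Mutant 3 lay within the controls and the other mutants lay above them. The log2 difference was 0.22 (SE 0.12, limma adjusted p = 0.37), and it was 0.13 without mutant 1 and 0.34 without mutant 3. Vps33a, the Sec1/Munc18 protein of the core (chromosome 5, 123528659 to 123573038), was at 15.5, 18.3 and 16.5 TPM in controls and 20.0, 17.7 and 16.2 TPM in mutants, with a log2 difference of 0.10 (limma adjusted p = 0.66). Its groups overlapped, and the difference was 0.045 without control 1, 0.16 without control 2, 0.022 without mutant 1 and 0.16 without mutant 3.

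Of the HOPS-specific subunits, Vps39, which binds Rab7 (chromosome 2, 120316461 to 120353137), was at 22.3, 27.9 and 22.4 TPM in controls and 27.3, 38.6 and 22.1 TPM in mutants. Mutant 2 was the highest library and mutant 3 the lowest, so the log2 difference of 0.24 (limma adjusted p = 0.54) was 0.03 without mutant 2 and 0.42 without mutant 3. Vps41, the other HOPS-specific subunit (chromosome 13, 18717286 to 18866811), was at 19.5, 21.3 and 19.4 TPM in controls and 21.4, 25.5 and 20.5 TPM in mutants. Here mutants 1 and 2 lay above all controls and mutant 3 did not (log2 difference 0.15, limma adjusted p = 0.47). Without mutant 2 the log2 difference was 0.061.

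Of the CORVET-specific subunits, Tgfbrap1, the counterpart of Vps39 (chromosome 1, 43047200 to 43098637), was at 11.6, 13.7 and 13.9 TPM in controls and 14.9, 15.8 and 14.4 TPM in mutants. As deposited, it was the 1 gene of the 10 whose groups did not overlap, where 20.3% of all genes tested did not. Overlap was not read under median-ratio and protein-coding scaling, where the log2 difference of Tgfbrap1 was 0.090 and 0.063. Means were 13.1 ± 1.25 and 15.0 ± 0.71 TPM (SD, n = 3), a log2 difference of 0.19 (SE 0.10, limma adjusted p = 0.36). Without control 1 the log2 difference was 0.12. Vps8, which binds Rab5 (chromosome 16, 21423118 to 21644680), was at 11.3, 10.6 and 10.2 TPM in controls and 11.9, 11.5 and 9.84 TPM in mutants, which overlapped (log2 difference 0.05, limma adjusted p = 0.83). For Vps8 it came to 0.082 without control 1, 0.016 without control 3, -0.0034 without mutant 1, 0.019 without mutant 2 and 0.12 without mutant 3.

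Rmc1 (chromosome 18, 12168717 to 12190658) was at 11.8, 11.6 and 10.1 TPM in controls and 10.6, 9.63 and 9.66 TPM in mutants. Mutants 2 and 3 lay below every control and mutant 1 lay above control 3. The log2 difference was -0.15 (SE 0.10, limma adjusted p = 0.44). Mon1a, the Mon1 paralogue among the members (chromosome 9, 107888151 to 107903139), was the lowest of the 10, at 2.30, 2.32 and 2.59 TPM in controls and 2.59, 2.72 and 2.38 TPM in mutants (log2 difference 0.07, limma adjusted p = 0.76). The Mon1a difference was 0.044 without control 1, 0.11 without control 3, 0.035 without mutant 2 and 0.11 without mutant 3.

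**Figure D2:**
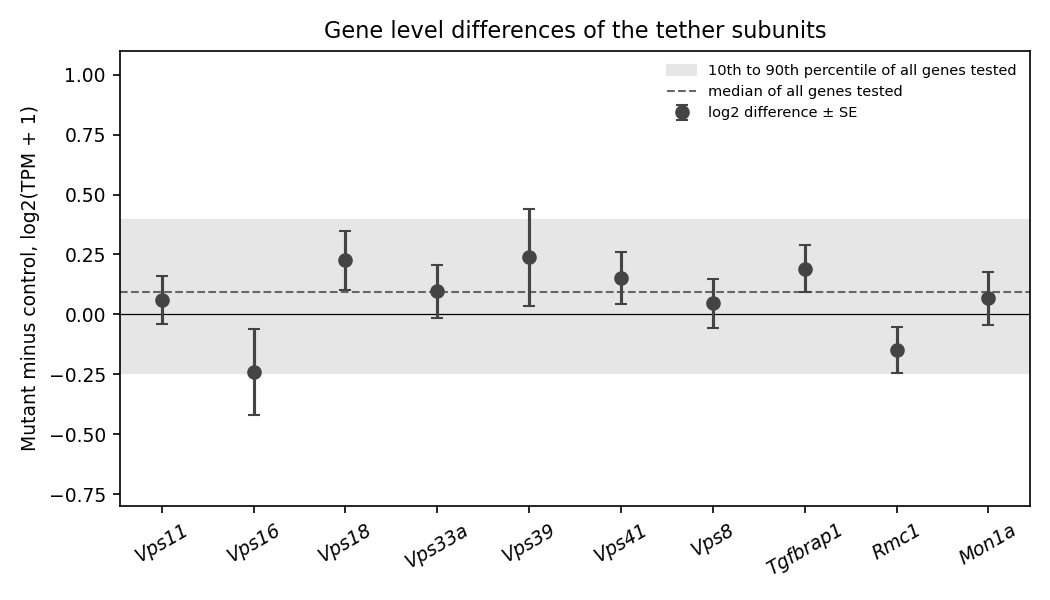
Log2 difference of each gene, mutant minus control on the log2(TPM + 1) scale, with its SE. The dashed line is the median of all genes tested (0.09) and the grey band runs from the 10th to the 90th percentile (-0.24 to 0.39), and the 10 points lie within that band.

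The order of the levels was read within each group. In controls Vps11, Vps39, Vps16 and Vps41 overlapped with their neighbours at the top. Vps33a lay below Vps41, overlapped with Vps16 through control 2, and lay above Tgfbrap1. Tgfbrap1, Rmc1 and Vps8 overlapped with their neighbours. Vps18 and then Mon1a followed, each separate from the gene above. In mutants Vps16 stood between Vps33a and Tgfbrap1 and overlapped with both, and Vps8, Vps18 and Rmc1 overlapped with their neighbours. The summed TPM of Vps39 and Vps41 over that of Vps8 and Tgfbrap1, a ratio of HOPS-specific to CORVET-specific transcripts, was 1.83, 2.03 and 1.73 in controls and 1.82, 2.34 and 1.76 in mutants. These ratios overlapped.

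Below the gene level, isoforms were compared, that is, single annotated transcripts named as in GENCODE M21. Of the 75 member isoforms, 45 held at least 5% of their gene in either group and 35 had a mean of at least 1 TPM and were tested. None passed the adjusted threshold in limma, against a background of 0.0136% of isoforms, and 3 had an unadjusted p under 0.05, against 11.2%. Of these, 1 was higher and 2 were lower, where 8.06% and 3.18% of all isoforms were. The higher isoform, Vps11-202, averaged under 1 TPM in controls, and Rmc1-204, a lower isoform, averaged under 1 TPM in mutants. Each reached the limit for testing through its other group. As deposited, 5 were higher and 1 lower without overlap, where 11.6% of all isoforms tested were higher and 5.17% lower in that way. The other scalings were not run on isoforms.

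The 1 isoform that was lower without overlap was Vps16-201, the complete coding transcript of Vps16 with 24 exons. It was at 8.84, 8.43 and 9.61 TPM in controls and 6.48, 7.35 and 6.55 TPM in mutants. Every mutant lay below every control, also in the library (mutant 2) whose total Vps16 level was high. Means were 8.96 ± 0.60 and 6.79 ± 0.48 TPM (SD, n = 3), with a ratio of 0.758. The log2 difference was -0.35 (SE 0.11, unadjusted p = 0.014, limma adjusted p = 0.43). These mutants also had the lower spermatocyte marker sums, from 314 to 396 TPM, and the part of that in the difference was not tested.

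The other Vps16 isoforms varied more between libraries. Vps16-208, annotated as a retained-intron transcript, was at 5.45, 2.00 and 2.65 TPM in controls and 2.60, 4.07 and 1.03 TPM in mutants, and Vps16-209, of the same class, was at 2.21, 1.12 and 1.17 against 0.51, 1.29 and 0.28 TPM. Control 1 was the highest library in both, as it was at the gene level. Vps16-203, Vps16-204 and Vps16-207 overlapped between groups, with control means of 2.08 ± 0.63, 0.534 ± 0.20 and 0.691 ± 0.33 TPM (SD, n = 3). As a share of Vps16, Vps16-201 held 35.1%, 47.1% and 46.7% in controls and 40.9%, 32.8% and 42.3% in mutants, which overlapped. Vps16-202, another retained-intron transcript, was at 2.68, 2.19 and 2.76 TPM in controls and 2.26, 3.99 and 3.25 TPM in mutants, which overlapped. Its share of Vps16 was 10.6%, 12.2% and 13.4% in controls and 14.3%, 17.8% and 21.0% in mutants, without overlap. Its log2 odds differed by 0.62 (unadjusted p = 0.030, limma adjusted p = 0.86), and 5.78% of all shares tested were higher without overlap.

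Set against the complete coding transcripts of its core partners within the same library, a ratio that a common scale does not move, Vps16-201 gave the following values. Its ratio to Vps11-201 was 0.612, 0.545 and 0.658 in controls and 0.443, 0.431 and 0.419 in mutants. To Vps33a-201 it was 0.709, 0.564 and 0.700 against 0.417, 0.461 and 0.472, and to Vps18-201 it was 1.32, 1.19 and 1.54 against 0.635, 0.986 and 0.886. In each ratio the mutants lay below the controls. The ratios share 1 numerator, Vps16-201, taken because it was lower without overlap, and Vps18-201 was itself higher without overlap, so they are not separate observations. The share of all such ratios that do not overlap was not computed. Mean ratios to Vps11-201 were 0.605 ± 0.057 and 0.431 ± 0.012 (SD, n = 3). An exact permutation test of 3 libraries against 3 cannot give a p under 0.1, so none is given. The ratio of the whole Vps16 gene to its 3 partner genes overlapped, at 1.64, 1.05 and 1.26 in controls and 0.826, 1.22 and 0.960 in mutants.

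**Figure D3:**
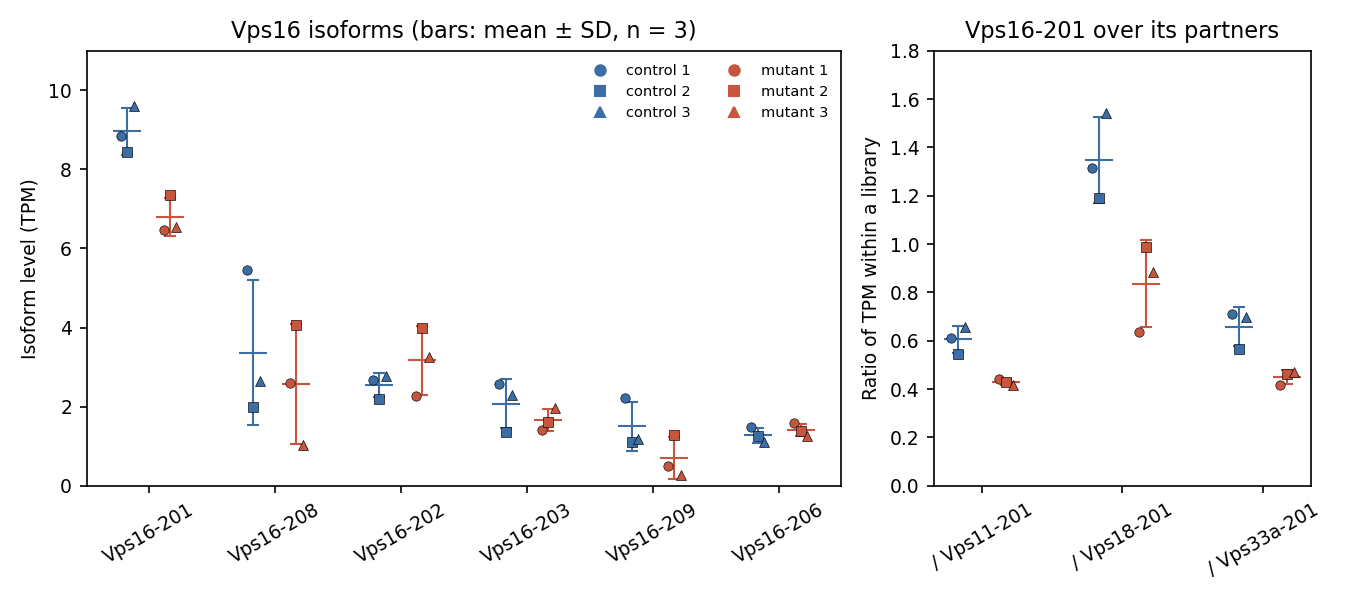
Left, TPM of 6 Vps16 isoforms in each library, with mean ± SD (n = 3). Right, TPM of Vps16-201 divided by that of the complete coding isoform of each core partner in the same library. The mutants of Vps16-201 lie at 6.48 to 7.35 TPM, below the controls at 8.43 to 9.61, and the mutants lie below the controls in all 3 ratios.

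Intron bases were read where another annotated transcript of the gene keeps the intron, which covered 23 of 240 member introns whole. A minor intron was taken as one of at least 60 nt that begins with NTATCCTT, where N is G or A and at most 1 of the last 6 bases differs, ends in AG or AC, and has TCCTTNA, where N is A or G and at most 1 base differs, with its last A 8 to 30 nt before the intron's end. Only the transcribed strand was searched, and the motifs were not required to be apart from others. Of 14423 introns of protein-coding genes read in the same way, 0.374% met the rule, and 0.770% had the 5′ motif. Among the members, 2 introns met it, 1 in Vps16 and 1 in Rmc1, the genes chosen for holding one.

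The minor intron of Vps16 is intron 13 of Vps16-201, at chr2:130440580-130440706 (GRCm38, plus strand), 127 nt long. It is printed here with the intron just before it, chr2:130440363-130440451, of 89 nt, to let the splice sites of the minor intron be compared with those of an ordinary one. Capitals mark the first 8 bases of each intron and, in the minor intron, the branch site.
Vps16 minor intron: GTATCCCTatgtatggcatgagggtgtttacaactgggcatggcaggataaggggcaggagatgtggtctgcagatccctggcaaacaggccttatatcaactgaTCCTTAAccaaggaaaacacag
Vps16 preceding intron: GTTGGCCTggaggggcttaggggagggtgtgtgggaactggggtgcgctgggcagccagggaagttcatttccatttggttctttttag
The minor intron differs from the 5′ motif at 1 base and matches the branch motif at all, 15 nt before its end. Its length is no multiple of 3. If Vps16-201 kept it, the reading frame would meet a stop codon inside the intron after 480 of 839 codons, with 10 exon junctions still downstream.

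Isoforms that splice this intron, Vps16-201 and Vps16-209, summed to 11.1, 9.55 and 10.8 TPM in controls and 6.99, 8.64 and 6.83 TPM in mutants. The isoform that keeps it, Vps16-206, was at 1.48, 1.25 and 1.11 TPM in controls and 1.58, 1.39 and 1.26 TPM in mutants. The spliced sums did not overlap, whereas those of Vps16-206 did. The intron was therefore held in 11.8%, 11.6% and 9.32% of these transcripts in controls and in 18.5%, 13.8% and 15.6% in mutants, without overlap. Means were 10.9% ± 1.37 and 16.0% ± 2.35 (SD, n = 3). The log2 ratio of spliced to unspliced TPM differed by -0.62 (SE 0.21, unadjusted p = 0.028, limma adjusted p = 0.86).

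Of 46 tested member introns, 5 had an unadjusted p under 0.05, against 5.59% of the 44606 introns tested, none passed the adjusted threshold in limma (background 0.0157%), and 7 had groups without overlap, against 11.6%. These are not separate introns, so their counts cannot be read against the background. Of the 5, 3 are Vps16 introns that set Vps16-206 against Vps16-201 and Vps16-209 with the same p, and the other two set Vps11-202 and Rmc1-204 against the rest. Of the 7, 5 rest on Vps16-206 and 2 on Vps11-202. Vps16-206 also uses other ends at a later intron, chr2:130441009-130441164, which has the same sums and values, so that the measure cannot assign the difference to the minor intron alone. The preceding intron, which Vps16-206 and Vps16-209 both keep, was held in 29.5%, 21.9% and 19.2% in controls and in 24.4%, 26.7% and 19.0% in mutants. There the groups overlapped, and the log2 ratio differed by -0.01 (limma adjusted p = 1.00).

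A stretch with all 8 bases of the 5′ motif begins the 789 nt intron of a further transcript, Vps16-205, at chr2:130438831-130439619 (plus strand). It is shown with 10 bases before it, in bases that are exonic in another Vps16 isoform, and capitals mark the motif.
Vps16-205 intron start: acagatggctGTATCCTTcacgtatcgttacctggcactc
The branch site of that intron could not be read. Vps16-205 was at 0.479, 0.204 and 0.143 TPM in controls and 0.150, 0.626 and 0.112 TPM in mutants, too low to be tested.

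The minor intron of Rmc1 is intron 11 of Rmc1-201, the complete coding transcript, and is 185 nt long. It differs at 1 base from each motif, with the branch A 8 nt before the end. If kept, it would bring a stop codon after 375 of 657 codons, with 8 exon junctions downstream. Rmc1-203 keeps the whole intron, and Rmc1-204 joins the same 5′ splice site to another 3′ end 30 nt further on.

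Rmc1-203 was at 0.656, 0.518 and 0.388 TPM in controls and 0.979, 0.931 and 1.03 TPM in mutants. It averaged under 1 TPM, so its level was not tested. It made up 5.56%, 4.47% and 3.83% of Rmc1 in controls and 9.23%, 9.67% and 10.7% in mutants. Every mutant share lay above every control share, with a log2 odds difference of 1.06 (SE 0.18, unadjusted p = 9.5e-04, limma adjusted p = 0.56). The control mean of 4.62% lay under the 5% needed for testing. Rmc1-203 was therefore tested through its mutant mean of 9.87%, which the p-value does not allow for. No share of a member passed the adjusted threshold, where 0.0112% of all shares tested did. Of 39 member shares tested, 5 had an unadjusted p under 0.05 against 5.78% (3 higher against 2.77%, 2 lower against 3.01%), and 3 were without overlap, all higher, against 11.7% in either direction. All 5 belong to Rmc1, Vps16 or Vps11. Among them, Rmc1-203 and Vps11-202 averaged under 5% in controls, and Vps16-209 and Rmc1-204 under 5% in mutants. The shares of a gene make up its whole, so a higher share of any isoform lowers the others. Member shares are therefore not separate observations, and their counts cannot be read against the background.

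Rmc1-204, annotated as coding, was at 2.47, 1.72 and 1.11 TPM in controls, at 1.39 TPM in mutant 1, and listed at 0 in mutants 2 and 3. Mutant 1 lay within the controls, so the groups overlapped (limma adjusted p = 0.43). Rmc1-201 was at 4.30, 4.84 and 3.73 TPM in controls and 3.80, 3.82 and 4.41 TPM in mutants, which overlapped. The other Rmc1 isoforms overlapped between groups, the highest being Rmc1-207, with means of 1.33 ± 0.14 and 1.43 ± 0.18 TPM (SD, n = 3). All isoforms annotated as coding made up 65.9%, 66.0% and 61.3% of Rmc1 in controls and 55.3%, 53.0% and 52.0% in mutants. The means of that share were 64.4% ± 2.72 and 53.4% ± 1.69 (SD, n = 3). Within it, Rmc1-204 had means of 15.6% ± 5.04 and 4.36% ± 7.55, and the complete coding Rmc1-201 of 38.4% ± 3.02 and 40.4% ± 4.99 (SD, n = 3). Both of these overlapped between groups. Rmc1 was the 1 gene of 9 members with a coding share between 5% and 95% whose groups did not overlap, against 5.17% of such genes lower and 7.41% higher.

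The splicing of the Rmc1 intron depends on how Rmc1-204 is counted. With every isoform that spans the intron without splicing it exactly taken as unspliced, the unspliced share was 42.1%, 31.6% and 28.7% in controls and 37.7%, 19.6% and 18.3% in mutants. These overlapped, and the log2 ratio of spliced to unspliced TPM differed by 0.63 (limma adjusted p = 0.87). With only isoforms that keep the whole intron taken as unspliced, the share was 13.2%, 9.66% and 9.43% in controls and 20.0%, 19.6% and 18.3% in mutants, without overlap, and the log2 ratio differed by -0.88 (SE 0.17, limma adjusted p = 0.52). With Rmc1-204 added to the spliced side, a count chosen after its values were seen, the share was 8.82%, 7.32% and 7.43% in controls and 15.6%, 19.6% and 18.3% in mutants. Its means were 7.86% ± 0.84 and 17.8% ± 2.03 (SD, n = 3), and the log2 ratio differed by -1.22 (SE 0.19, limma adjusted p = 0.44).

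**Figure D4:**
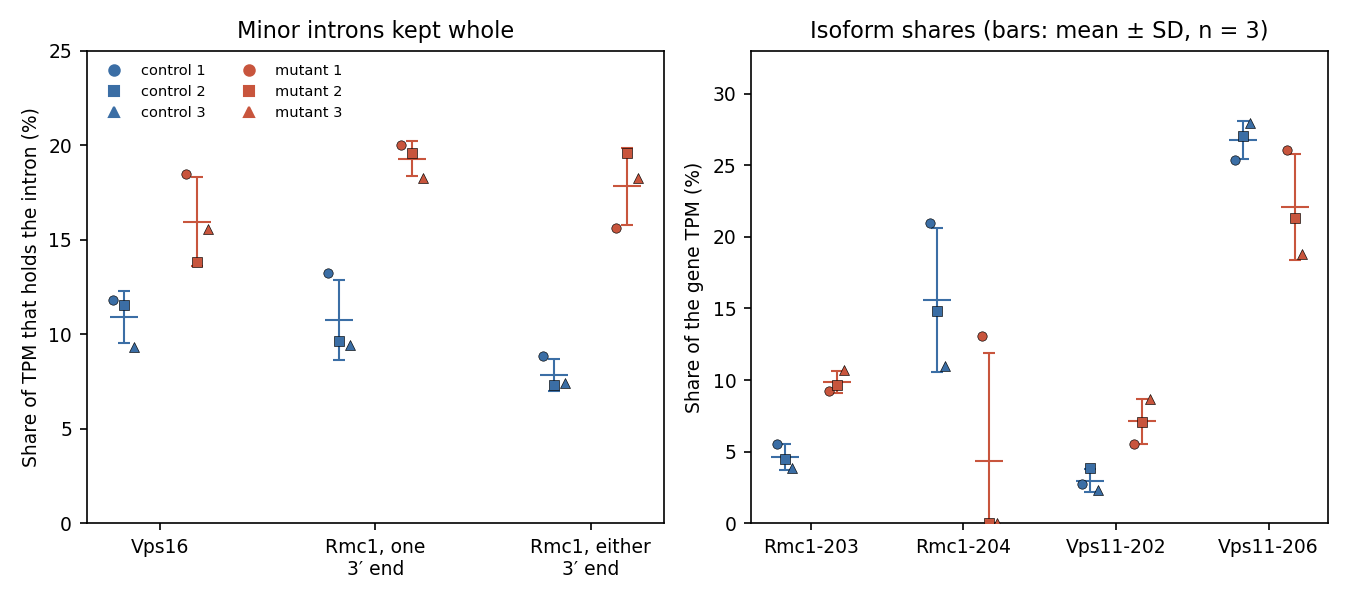
Left, percent of TPM that holds the minor intron of Vps16 and of Rmc1, the latter with spliced isoforms of 1 or of either 3′ end, in each library with mean ± SD (n = 3). Right, share of 4 isoforms in the TPM of their gene. In the measures shown, the mutants lie above the controls at both introns. They also lie above the controls for Rmc1-203 and for Vps11-202, and overlap with them for Rmc1-204 and Vps11-206. The Rmc1 measure that takes Rmc1-204 as unspliced is not shown, and its groups overlapped. The count with either 3′ end was chosen after its values were seen. Rmc1-203 is the isoform that keeps the Rmc1 intron, so its values in both panels are not separate observations.

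Vps11-202 was the isoform with the smallest p among the 35 member isoforms tested by level. None of the 3 Vps11 introns read whole, of 18, met the rule for a minor intron, and the rest could not be checked in full. Vps11-202 is annotated as a target of nonsense-mediated decay and joins a 5′ splice site that lies 67 nt upstream of the one used by Vps11-201, Vps11-203, Vps11-204 and Vps11-206 to the same 3′ end. Vps11-205 keeps this intron. The introns are chr9:44355851-44356294 and chr9:44355851-44356227 (GRCm38, minus strand). Both splice sites are shown with 10 exon bases before them, and capitals mark the first 8 bases of the intron, which begins with GT at the upstream and GC at the downstream site.
Vps11 upstream site (Vps11-202): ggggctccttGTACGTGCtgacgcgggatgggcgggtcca
Vps11 downstream site (Vps11-201): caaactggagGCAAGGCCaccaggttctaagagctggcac
Vps11-202 was at 0.749, 1.23 and 0.747 TPM in controls and 1.70, 2.43 and 2.69 TPM in mutants. Each mutant lay above each control. The log2 difference was 0.77 (SE 0.18, unadjusted p = 0.0038, limma adjusted p = 0.43). Its share of Vps11 was 2.73%, 3.85% and 2.30% in controls and 5.55%, 7.09% and 8.68% in mutants, a log2 odds difference of 1.24 (limma adjusted p = 0.73). The complete coding Vps11-201 was at 14.4, 15.5 and 14.6 TPM in controls and 14.6, 17.1 and 15.7 TPM in mutants, which overlapped.

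The remaining members were described by the isoform with the smallest p of each gene. Vps18-201, the complete coding transcript, was at 6.71, 7.08 and 6.23 TPM in controls and 10.2, 7.45 and 7.39 TPM in mutants, without overlap (limma adjusted p = 0.49). Vps41-201 was at 14.0, 14.8 and 13.9 TPM in controls and 15.2, 18.2 and 15.2 TPM in mutants, also without overlap (limma adjusted p = 0.55). The other isoforms without overlap were Vps41-203 and Vps41-204, both annotated as noncoding and both higher. These levels are as deposited, and the other scalings were not run on isoforms. Median-ratio factors were 0.944, 0.995 and 0.966 in controls and 1.07, 1.11 and 0.961 in mutants, so these separations can depend on the scale. Vps39-201 had means of 9.30 ± 0.78 and 11.3 ± 1.34 TPM, Tgfbrap1-201 of 4.27 ± 1.21 and 5.64 ± 1.19 TPM, and Vps8-203 of 1.54 ± 0.54 and 2.32 ± 0.51 TPM (SD, n = 3). Each of these 3 overlapped between groups, as did Vps33a-201 and Mon1a-201. Single complete coding isoforms made up from 24.5% (Vps39-202) to 82.1% (Mon1a-201) of their genes in controls, and these shares overlapped between groups for all 10 genes.

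Direct partners of the complexes outside the 10 genes were measured beside them. Ccz1, the partner of Mon1, had means of 31.5 ± 2.13 and 32.2 ± 1.96 TPM, and Mon1b, the other Mon1 paralogue, of 4.30 ± 0.23 and 4.48 ± 0.41 TPM (SD, n = 3), and both overlapped. Rab7, the GTPase that HOPS binds, was at 48.7, 64.4 and 53.9 TPM in controls and 70.5, 79.7 and 62.6 TPM in mutants. Mutant 3 lay below control 2, and the log2 difference was 0.35 (SE 0.14, limma adjusted p = 0.30). It was 0.24 and 0.21 after median-ratio and protein-coding scaling. Of the CHEVI complex, built on paralogues of 2 core subunits, Vipas39 was at 22.1, 24.4 and 23.4 TPM in controls and 26.5, 31.6 and 24.5 TPM in mutants, without overlap (limma adjusted p = 0.35), and Vps33b overlapped. The log2 difference of Vipas39 was 0.22 as deposited and 0.12 and 0.090 under these scalings.

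Across the wider pathway, 195 further genes were tested, from Rab and Arl GTPases, SNAREs, lipid kinases, retromer, ESCRT and other tethers to lysosomal enzymes, the V-ATPase and autophagy. As deposited, 161 were higher and 34 lower in mean, but 109 were higher after median-ratio scaling and 94 after rescaling to protein-coding genes. Of all 17959 genes tested, 11925 were higher as deposited. The median log2 difference as deposited was 0.12, where that of protein-coding genes was 0.11. None passed the adjusted threshold in limma, 28 had an unadjusted p under 0.05, a share below the 16.1% of all genes tested (26 higher against 12.1%, 2 lower against 3.98%), and 32 were higher and 3 lower without overlap, where 14.5% and 5.77% of all genes tested were. Lysosomal enzymes had the highest median of the 17 lists, at 0.26, with 20 of 22 higher in mean as deposited (19 and 17 under these scalings) and 7 without overlap. Endolysosomal SNAREs, which the tethers bring together, were higher in mean in 14 of 15 as deposited, and in 6 and 5 under these scalings. Their median log2 difference as deposited was 0.05, where that of all genes tested was 0.09. It lay below that of all genes under these scalings as well. Among the SNAREs, Stx7 was at 15.7, 17.9 and 16.5 TPM in controls and 20.6, 21.9 and 19.2 TPM in mutants, without overlap (limma adjusted p = 0.29). Its log2 difference was 0.29 as deposited and 0.18 and 0.16 under these scalings. Ctsl, a lysosomal protease that also stands on the Sertoli list, was at 279, 343 and 286 TPM in controls and 439, 486 and 458 TPM in mutants. The lower genes without overlap included Atp6v1d, a V-ATPase subunit, at 40.6, 38.0 and 38.9 TPM in controls and 30.6, 29.5 and 29.6 TPM in mutants (limma adjusted p = 0.29), and Fnip1, a partner of folliculin, with means of 15.0 ± 1.96 and 12.0 ± 0.33 TPM (SD, n = 3). Sertoli, Leydig, macrophage and endothelial marker genes were higher in mean in the same libraries, as were 4 of 5 peritubular markers. Their part in these values was not tested.

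Over the 6 libraries, the genes whose log2 level followed that of Vps16 most closely, among 10825 genes of at least 5 TPM, were Zmat2 (Pearson r = 0.998), Dnajb1 (0.992) and Zkscan7 (0.985). For Rmc1 they were Gm23262 (0.996), Dleu2 (0.987) and Aldh16a1 (0.978). With Vps16 itself the correlation of Rmc1 was 0.29, and that of Vps11, Vps18 and Vps33a with Vps16 was -0.19, -0.23 and -0.53. These values describe 6 libraries that share their TPM totals and a group difference, and with so few points 90 genes had an r above 0.9 with Vps16 and 43 with Rmc1.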

How the data were processed

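Whole testes of 3 control and 3 mutant mice at postnatal day 14 were compared, with 1 library per animal. The submitters' processing notes name HISAT2 and the build GRCm38. What tool estimated the levels is not given in the sources used here. As deposited, the values are TPM for each gene and each isoform of a library. Depth is unknown, and intervals from counts cannot be given. Abundant short RNAs share each TPM total. The deposited log2 fold changes of the authors' gene table were read and are not printed. With limma 3.58.1 (R 4.3.3), levels were tested on log2(TPM + 1), two-sided, for features of at least 1 TPM, with Benjamini-Hochberg adjustment over all features and a threshold of 0.05. Shares were tested as log2 odds and introns as log2 of spliced over unspliced TPM, with 0.1 added to each sum (genes of at least 5 TPM and shares of 5% to 95%; both intron sums at least 0.5 TPM). The fits were tested on simulated data. Members and lists were chosen with earlier results of these data known. Named were Rnu11, all members, isoforms of Vps16 and Rmc1 or with the smallest p of their gene, up to 3 list genes with the smallest p, and the 3 genes most like Vps16 and Rmc1. Marker genes and direct partners were added. Alternatives were pseudocounts, filters, scalings, no trend, other definitions of an unspliced isoform, a replicate block and leaving out each library.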

Additional observations from a re-analysis of the deposited data

How the results depend on the processing

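No gene, isoform, share or intron of the 10 members passed the adjusted threshold under any setting run. Over all genes, limma called 5 as reported, 3 with a filter of 5 TPM, 3 with median-ratio scaling, 3 without the trend, 0 with no filter (38587 genes tested), 8 with a pseudocount of 0.1, and 4 to 9 with a library left out. Over all isoforms it called 6, and 11 with a pseudocount of 0.1 and 3 to 11 with a library left out; over all shares 4, and 1 to 10 with a library left out. Over all introns it called 7, 25 with a filter of 0.2 TPM, 13 with a pseudocount of 0.5, 4 with only whole retained introns as unspliced, and 0 to 30 with a library left out. With the replicate number as a block, each of these 4 counts was 0. The labels number the libraries in both groups, but deviations of same-numbered libraries correlated at -0.07, 0.03 and 0.08, so the numbers were not taken to pair animals, and the replicate block changed no call of a member. The direction of 4 genes turned under median-ratio and protein-coding scaling, to -0.053 and -0.088 for Vps8, -0.045 and -0.078 for Vps11, -0.0069 and -0.039 for Vps33a, and -0.011 and -0.042 for Mon1a. With a library left out, Vps11 ranged from -0.014 (without control 1) to 0.10 and Vps8 from -0.0034 (without mutant 1) to 0.12. The Rmc1 intron turned from 0.63 to -0.88 with only whole retained introns as unspliced and to -1.22 with either 3′ end as spliced, because of where Rmc1-204 is counted. The Vps16 intron stayed between -0.73 and -0.49 in 10 alternatives (limma adjusted p from 0.74 to 0.98), Vps16-201 between -0.40 and -0.31 in 9, Vps11-202 between 0.68 and 1.24 in 9, and the share of Rmc1-203 between 0.78 and 1.18 in 8. The number of libraries limits all of these, and the depth behind the TPM values is unknown.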
